A study of Homo sapiens with 6 samples.

Results

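Unconventional myosins are proteins of the actin motor family outside the filament-forming myosin II class of muscle and of the contractile cortex. The genes described here are MYO10, MYO1C, MYO1E, MYO5A, MYO6, MYO9A, MYO9B, MYO18A and MYO19, which are 9 of the 18677 rows of the deposited count table. They were looked up by symbol in the GENCODE 29 annotation, and all 9 were found and passed the filter on low counts. MYO10 was picked from these data for its rise, so its values are a description without a test, whereas the other 8 were listed as members of the same family and were tested.

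The cells were H1299, a human lung cancer line of the non-small cell type. Cells with the guide RNA hSETDB1 sg1 gave 3 RNA-seq libraries (the SETDB1 knockout), and cells with the guide Control sg2 gave the other 3 (the control). Both groups grew in RPMI-1640 medium with serum, antibiotics and puromycin, a drug that keeps cells carrying a resistance gene. SETDB1 encodes a methyltransferase that writes the repressive H3K9me3 mark on histone H3. Each group had 1 guide. Nothing in the labels tells whether the cells were a clone or whether the 3 libraries of a group came from separate cultures, so p-values measure only the spread between these libraries, which may be technical.

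A typical myosin has a head that binds actin and splits ATP, a neck that binds calmodulin or related light chains, and a tail that sets what it carries. MYO10 walks along bundled actin to the tips of filopodia, the thin finger-like protrusions of the cell edge, and its tail binds integrins, microtubules and the netrin receptors DCC and neogenin. The other classes tie membranes to actin (MYO1C, MYO1E), carry vesicles and organelles (MYO5A, MYO6, MYO19), switch off the GTPase RhoA (MYO9A, MYO9B) or serve at the Golgi (MYO18A, whose head is not thought to work as an active motor).

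Levels are given in CPM, counts scaled to the size of the library with TMM factors, and 1 count was worth 0.0282 to 0.0334 CPM. Each log2 fold change sets the knockout over the control and comes with its standard error (SE). Tests used edgeR's quasi-likelihood method, and a gene was called (said to rise or fall) at an adjusted p under 0.05 over the 17675 genes tested. The libraries held 29532057 to 35941288 counts. SETDB1 itself stood at 38.6 ± 2.31 CPM in the knockout and at 43.5 ± 1.76 CPM in the control (SD, n = 3), a log2 fold change of -0.17 ± 0.06 (adjusted p = 0.0151) whose call ended without knockout replicate 2 (adjusted p = 0.0896). A gene count does not show whether the protein was lost, since an edited transcript can still be counted. Of the marker genes for the line, VIM was abundant, at 2430 CPM in the control and 2220 CPM in the knockout. Of the epithelial markers, KRT8 fell from 367 CPM in the control to 157 CPM in the knockout and KRT18 from 599 to 332 CPM, while EPCAM was too low to be tested and CDH1 was not analysed here. The fibroblast marker COL1A1 was at 1.16 CPM in the control and at 0.746 CPM in the knockout, and the markers of blood, endothelium and liver (PTPRC, PECAM1, ALB) were not analysed here. In bulk RNA, fewer cells with a transcript and less of it per cell cannot be told apart.

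MYO10 (ENSG00000145555) lies on the reverse strand of chromosome 5, at 16661914 to 16936276 in GRCh38. Its level was 129.0, 129.8 and 131.0 CPM in the knockout, against 8.108, 7.379 and 8.049 CPM in the control. The groups were far apart, and the libraries within each group lay close together. The means were 130 ± 0.973 CPM and 7.85 ± 0.405 CPM (SD, n = 3), a log2 fold change of 4.05 ± 0.06 (SE), or 16.6-fold. Of all genes tested, 7.14% were at least 2-fold higher in the knockout, and 202 had a larger log2 fold change than MYO10. Most of those began near 0: among the 14498 genes with at least 1 CPM in the control, 8 had a larger log2 fold change than MYO10.

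The annotation lists 12 MYO10 transcripts, of which 7 code for protein, and the coding transcripts start at 7 positions between 16936276 and 16738414. Both full-length and headless MYO10 proteins are known. The deposited value is 1 count per gene, so it does not show which start the reads came from. No annotated exon of another gene overlaps an exon of MYO10, whereas RPS26P28, a processed pseudogene within the MYO10 gene, was measured separately and was not called (log2 fold change 0.13, adjusted p = 0.718).

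**Figure D1:**
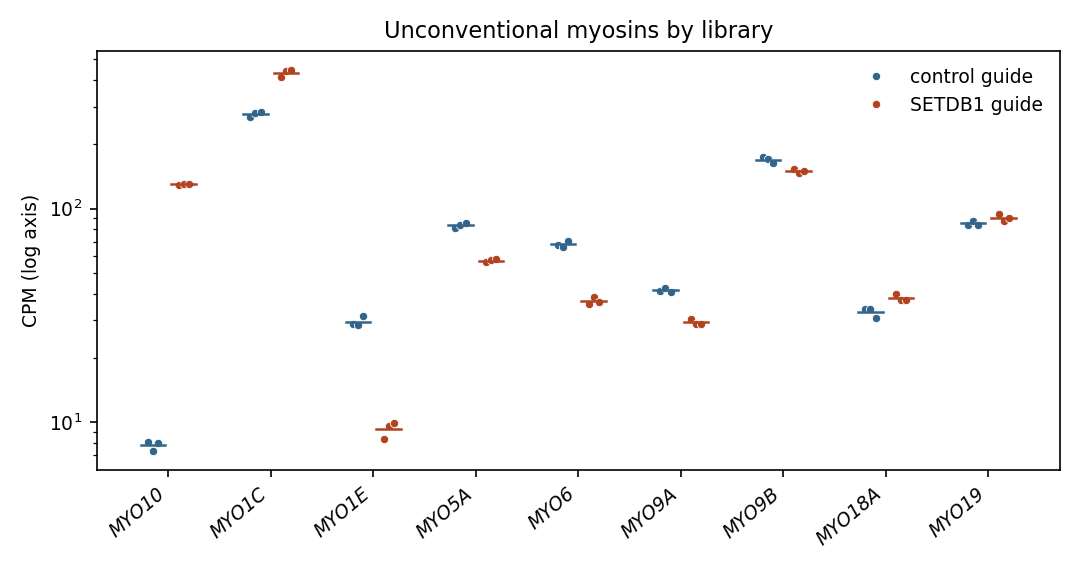
CPM of the 9 unconventional myosins in each of the 6 libraries, on a log axis. Points are libraries and bars are group means. MYO10 lies near 130 CPM in the knockout and near 7.85 CPM in the control, while MYO1E lies lower in the knockout and the groups of MYO19 overlap.

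The promoter windows of the myosin with the highest and of the one with the lowest log2 fold change among the 9, MYO10 and MYO1E, are shown because they differ in base composition. They run from 250 bases before to 50 bases after the start of the gene in RefSeq (GRCh38.p14), at chr5:16936239-16936538 and chr15:59372822-59373121. Both are given 5′ to 3′ along the reverse strand, on which both genes are read, and capitals mark CpG dinucleotides.
MYO10: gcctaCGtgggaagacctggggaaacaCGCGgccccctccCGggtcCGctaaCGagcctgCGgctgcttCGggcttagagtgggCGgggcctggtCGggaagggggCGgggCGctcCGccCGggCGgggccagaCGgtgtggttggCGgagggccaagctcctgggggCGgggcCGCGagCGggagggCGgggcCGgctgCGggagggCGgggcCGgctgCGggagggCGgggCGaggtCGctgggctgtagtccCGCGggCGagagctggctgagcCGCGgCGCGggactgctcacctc
MYO1E: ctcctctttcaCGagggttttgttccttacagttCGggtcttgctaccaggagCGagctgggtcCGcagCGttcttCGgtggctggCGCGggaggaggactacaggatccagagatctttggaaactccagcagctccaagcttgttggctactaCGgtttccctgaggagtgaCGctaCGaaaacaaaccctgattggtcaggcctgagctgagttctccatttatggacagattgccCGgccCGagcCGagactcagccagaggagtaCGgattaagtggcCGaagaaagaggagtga
The MYO10 window held 37 CpG dinucleotides and was 78.3% G or C, and 88.7% of the 35114 RefSeq promoter windows held fewer CpGs. The MYO1E window held 16 CpGs and was 55.3% G or C, near the median window (14 CpGs and 58.7%). The letters CCGCCC, known as a GC box, were matched on both strands with overlapping matches counted, and a match contains 1 CpG. They occurred 8 times in the MYO10 window and 0 times in that of MYO1E. At least 1 match was present in 45.0% of all windows, and 0.812% held at least as many as that of MYO10. These shares are over windows of every base composition, and windows rich in G and C were not set apart. Of the other myosins that fell, MYO9A and MYO9B had 4 matches each, MYO6 had 3 and MYO5A had 1. The windows of MYO1C held 0 to 5, those of MYO18A 1 or 2, and that of MYO19 2. TATAAA (in 11.5% of windows), CACGTG (7.26%) and GGAATG (14.0%) were in neither window, and CCAAT (34.6%) occurred once in that of MYO1E. All 9 genes had a window, and 2 of them, MYO1C and MYO18A, had more than 1. MYO1E was the only gene of the 9 without a window of 30 or more CpGs. MYO1C, MYO5A, MYO6 and MYO9B each had a window with more CpGs than that of MYO10, and of these MYO1C rose and the other 3 fell. DNA methylation and histone marks were not measured in these libraries.

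Of the 8 myosins that were tested, 2 rose, 5 fell and 1 was not called. The called share was 87.5%, beside 63.5% of all genes tested in either direction, 31.9% higher and 31.6% lower. The median log2 fold change of the 8 was -0.34, beside 0.009 for all genes tested. Over 8 genes, and with most genes of the comparison called, these counts only describe the family. The groups did not overlap in 7 of the 8, beside 66.8% of all genes tested.

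MYO1C and MYO1E are single-headed class I motors that bind membrane lipids with their tails. They moved in opposite directions. MYO1C (ENSG00000197879; chromosome 17, 1464186 to 1492812), which works in exocytosis and also has a nuclear form, was at 414.8, 439.5 and 446.5 CPM in the knockout and at 269.9, 280.5 and 282.2 CPM in the control. Every knockout library was above every control library. MYO1C rose by a log2 fold change of 0.64 ± 0.05, or 1.56-fold (adjusted p = 2.52e-09). Its stretch of chromosome 17 rose as well: of its 37 expressed neighbours, 28 rose and 2 fell, with a median of 0.48. With that median taken out, MYO1C was at 0.16 (adjusted p = 0.0141). Here and for other genes the median was entered as a fixed value, so this p-value leaves out the spread among neighbours. The neighbours of MYO1C had quartiles at 0.23 and 0.64, and 9 of the 37 had a larger log2 fold change than MYO1C. The part of the stretch in the change of MYO1C was not otherwise tested.

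MYO1E (ENSG00000157483; chromosome 15, 59132434 to 59372900), a motor of endocytic sites and of cell contacts, was at 8.332, 9.65 and 9.978 CPM in the knockout and at 28.79, 28.70 and 31.32 CPM in the control. All control libraries were at 28.70 CPM or more, and no knockout library was above 9.978 CPM. MYO1E fell by 1.66 ± 0.07 on the log2 scale, 3.17-fold (adjusted p = 2.55e-13), and showed the largest fall of the 9. Of its 50 expressed neighbours 41 fell, with a median of -0.41, and 2 of them fell further than MYO1E. Taking out that median left MYO1E at -1.25. The opposite-strand gene FAM81A shares 87 exonic bases with it, 0.96% of the MYO1E exons, and itself went from 15.2 to 4.65 CPM (log2 fold change -1.70 ± 0.11, adjusted p = 6.76e-11).

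The cargo motors MYO5A and MYO6 both fell. MYO5A (ENSG00000197535; chromosome 15, 52307283 to 52529050), which walks toward the plus end of actin with melanosomes, vesicles and endoplasmic reticulum, was at 56.15, 57.26 and 58.14 CPM in the knockout and at 81.41, 84.01 and 85.43 CPM in the control. The groups stood apart by more than their own range. Its log2 fold change was -0.55 ± 0.05, a 1.46-fold fall (adjusted p = 1.20e-08). It lies on the same chromosome as MYO1E and MYO9A, and 38 of its 50 expressed neighbours fell, with a median of -0.36. With the median taken out, MYO5A was at -0.19 (adjusted p = 0.00296).

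MYO6 (ENSG00000196586; chromosome 6, 75749192 to 75919537, forward strand) walks toward the minus end of actin and serves endocytosis and autophagy. It was at 35.89, 38.69 and 36.72 CPM in the knockout and at 67.67, 66.35 and 70.92 CPM in the control. The lowest control library was well above the highest knockout library. MYO6 fell by 0.88 ± 0.05 on the log2 scale, 1.84-fold (adjusted p = 3.26e-11). Of its 50 expressed neighbours, 43 fell and the median was -0.52. MYO6 fell further than 48 of them, and was at -0.36 with the median taken out.

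The class IX myosins MYO9A and MYO9B carry a RhoGAP domain in the tail, which switches off RhoA, and both fell by less than 1.5-fold. MYO9A (ENSG00000066933; chromosome 15, 71822289 to 72118577) was at 30.39, 28.89 and 28.71 CPM in the knockout and at 41.21, 42.38 and 40.70 CPM in the control. MYO9B (ENSG00000099331; chromosome 19, 17075781 to 17214537, forward strand) was at 153.1, 147.5 and 149.9 CPM in the knockout and at 174.5, 171.3 and 163.4 CPM in the control. In neither gene did the groups overlap. MYO9A had a log2 fold change of -0.50 ± 0.06 (1.41-fold lower, adjusted p = 1.78e-07). MYO9B had one of -0.18 ± 0.05 (1.13-fold lower, adjusted p = 0.00524). Of the 50 expressed neighbours of MYO9A, 27 fell and 8 rose (median -0.17), and MYO9A was at -0.33 with that median taken out. MYO9B fell where its neighbours leaned the other way (25 of 50 rose and 7 fell, median 0.14), and the value was -0.31 with the median taken out. The opposite-strand gene SENP8 shares 160 exonic bases with MYO9A, 0.79% of its exons.

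Of the last pair, MYO18A rose slightly and MYO19 was not called. MYO18A (ENSG00000196535; chromosome 17, 29071124 to 29180412), which links the Golgi protein GOLPH3 to actin, was at 40.06, 37.44 and 37.54 CPM in the knockout and at 33.93, 34.03 and 30.67 CPM in the control. It rose by a log2 fold change of 0.22 ± 0.06, 1.17-fold (adjusted p = 0.00303), and its neighbours had a median of 0.01. TIAF1 lies within the MYO18A gene on the same strand. Its exons share 1394 bases with those of MYO18A, 9.26% of the MYO18A exons. Reads from these shared bases may have been counted for either gene or dropped. MYO19 (ENSG00000278259; chromosome 17, 36495633 to 36543435), the motor of the mitochondrial outer membrane, was at 94.28, 87.22 and 90.80 CPM in the knockout and at 84.08, 87.48 and 84.25 CPM in the control. Its groups overlapped, and its log2 fold change of 0.09 ± 0.05 was not called (adjusted p = 0.136). The opposite-strand genes ZNHIT3 and PIGW share 7.99% and 4.45% of the MYO19 exons. The strand setting of the counting was not given in the sources used here, so reads of such pairs may not have been separated.

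**Figure D2:**
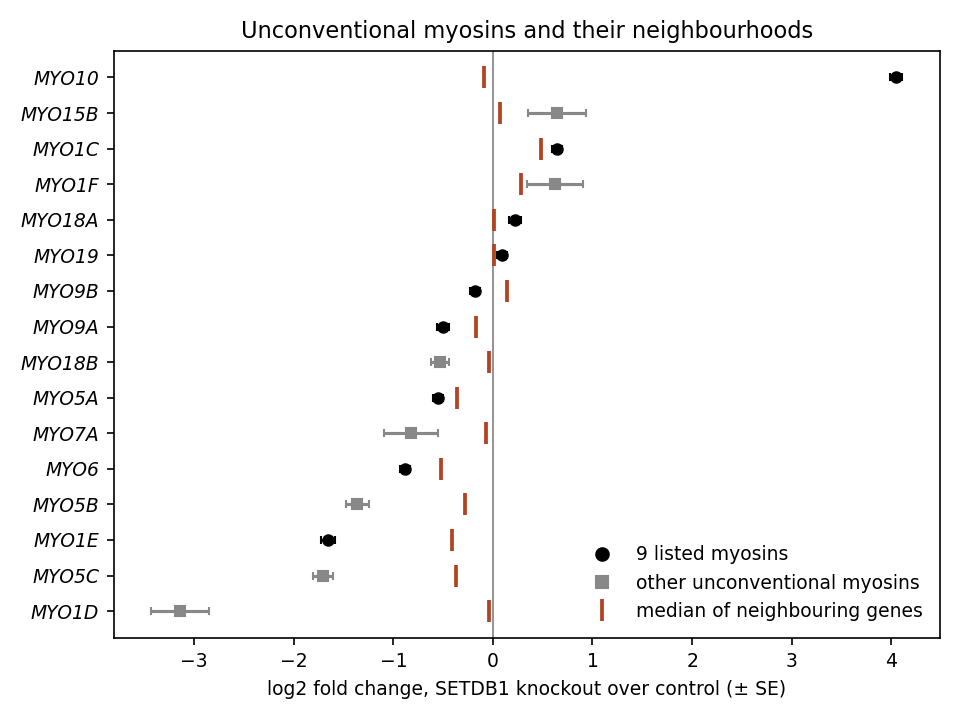
Log2 fold change (SETDB1 knockout over control, with SE) of the 9 listed and 7 other tested unconventional myosins, from 3 libraries per group, with the median of each gene's expressed neighbours beside it. MYO10 stands at 4.05 with neighbours at -0.09, whereas MYO1C (0.64, neighbours 0.48) and MYO5A (-0.55, neighbours -0.36) lie close to theirs.

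Set per kilobase of annotated exon, which allows levels of different genes to be compared, MYO1C was the most abundant of the 9 in both groups and MYO10 moved from the last place to the third. In the control the order of levels was MYO1C (34.2 ± 0.822 CPM per kb), MYO9B (17.1 ± 0.571), MYO6 (7.78 ± 0.268), MYO19 (6.52 ± 0.146), MYO5A (6.44 ± 0.157), MYO1E (3.25 ± 0.163), MYO18A (2.18 ± 0.127), MYO9A (2.05 ± 0.0427) and MYO10 (0.562 ± 0.029). MYO19 and MYO5A overlapped there, as did MYO18A and MYO9A. In the knockout the order was MYO1C (53.5 ± 2.05 CPM per kb), MYO9B (15.1 ± 0.28), MYO10 (9.31 ± 0.0697), MYO19 (6.94 ± 0.27), MYO5A (4.4 ± 0.0767), MYO6 (4.22 ± 0.163), MYO18A (2.55 ± 0.0985), MYO9A (1.45 ± 0.0457) and MYO1E (1.02 ± 0.0957). There only MYO5A and MYO6 overlapped as neighbours in the order.

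The summed level of the 9 was 98.5 ± 1.84 CPM per kb in the knockout and 80.1 ± 0.709 in the control. MYO1C had the largest difference (19.3 CPM per kb), followed by MYO10 (8.74), and the 5 myosins that fell differed by -0.597 (MYO9A) to -3.55 (MYO6). MYO10 thus made up 9.58%, 9.41% and 9.37% of the sum in the knockout libraries, beside a mean of 0.702% ± 0.0405 in the control. The share of MYO1C was 54.3% ± 1.11 in the knockout and 42.8% ± 0.67 in the control, and that of MYO1E was 1.04% and 4.06%. MYO10 was chosen on its rise, so its share is also a description. The order depends in part on the length used. With the longest annotated transcript as the length, MYO10 held rank 4 in the knockout, with a share of 7.62%, and rank 9 in the control, with 0.583%. MYO1C and MYO9B kept ranks 1 and 2, and MYO19 held rank 3 in both groups (14.8 CPM per kb in the control, beside 7.86 for MYO6). MYO9A then stood before MYO18A in the control, with overlapping ranges.

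**Figure D3:**
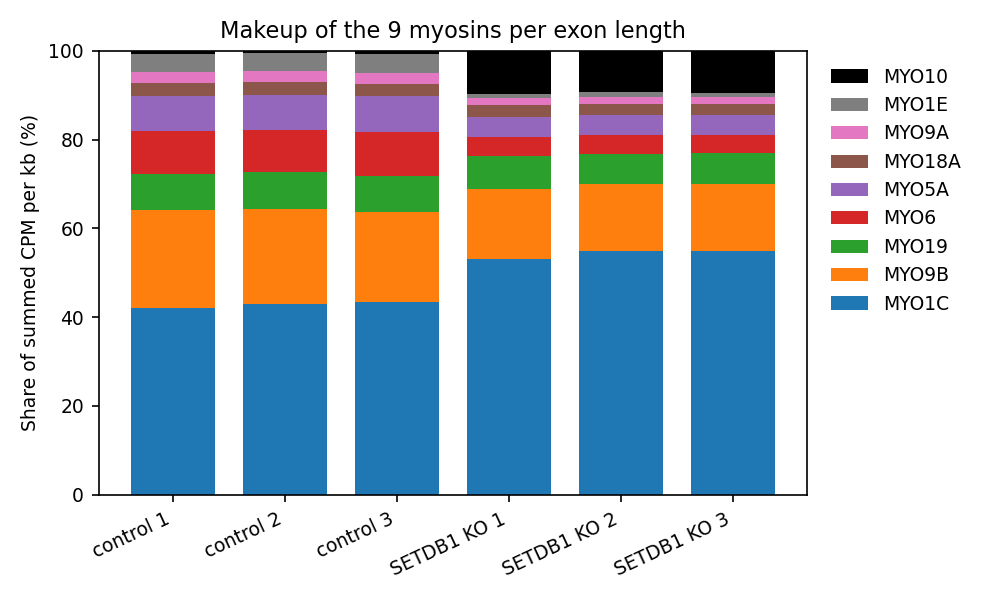
Share of the summed level (CPM per kb of exon, in percent) that each of the 9 myosins took in each of the 6 libraries. MYO10 takes about 9.45% in the knockout libraries and 0.702% in the control libraries, and MYO1C takes the largest share in every library.

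The expressed genes around MYO10 on chromosome 5 showed no common direction. Its 50 expressed neighbours (25 on each side, log2 CPM above 3) spanned 37.62 Mb and had a median log2 fold change of -0.09, with quartiles at -0.23 and 0.25. Of them 16 rose and 17 fell, and the largest value was 1.5, below that of MYO10. Genes of low level are left out of that count. All 22 tested genes within 5 Mb of MYO10 were therefore counted too, a window chosen after the values had been seen: 8 rose (36.4%, beside 31.9% of all genes), 5 fell and 9 were not called, with a median of 0.12.

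The nearest coding neighbours on both sides were higher in the knockout. RETREG1, a receptor for autophagy of the endoplasmic reticulum that lies 44.9 kb away on the same strand, was at 1.833, 2.311 and 1.609 CPM in the knockout and at 0.1668, 0.1261 and 0.08473 CPM in the control. Its log2 fold change was 3.92 ± 0.30, or 15.1-fold (adjusted p = 9.56e-10), on 3 to 5 counts per control library. BASP1, a membrane-bound protein of growth cones that lies 129.3 kb away on the other side, was at 35.96, 39.35 and 39.06 CPM in the knockout and at 13.18, 13.02 and 14.15 CPM in the control. It rose by 1.5 ± 0.07 on the log2 scale, 2.83-fold (adjusted p = 1.51e-13). No knockout library of either gene fell to a control level.

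Farther out the changes were mixed. ZNF622, 196.1 kb from MYO10, rose by 0.30 ± 0.06 (adjusted p = 1.52e-04), and FBXL7, at 722.1 kb, had overlapping groups and was not called (0.22 ± 0.12, adjusted p = 0.136). The cadherin genes CDH18 and CDH12, at 2536.7 and 4814.4 kb, went from 0.439 to 2.30 CPM and from 0.071 to 3.76 CPM. Their log2 fold changes were 2.37 ± 0.20 (adjusted p = 3.94e-09) and 5.63 ± 0.30 (adjusted p = 3.03e-12). Among the coding genes that fell, DNAH5 fell by 0.54, OTULIN by 0.21 and TRIO by 0.16. In all, 6 of the 22 genes (27.3%, beside 7.14% of all genes, whatever their level) were at least 2-fold higher and 0 were as much lower. Apart from BASP1, those higher were at 0.439 CPM or less in the control. BASP1-AS1 is among them and lies within BASP1 on the opposite strand, so their reads may not have been separated. Within 5 Mb of MYO1C, 31 of 106 genes were as much higher, and near MYO9B 30 of 227. Near MYO19, MYO9A and MYO18A it was 3 of 121, 2 of 89 and 1 of 84, and near MYO1E, MYO5A and MYO6 it was 0. The fold of a gene near 0 in the control rests on few counts there.

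**Figure D4:**
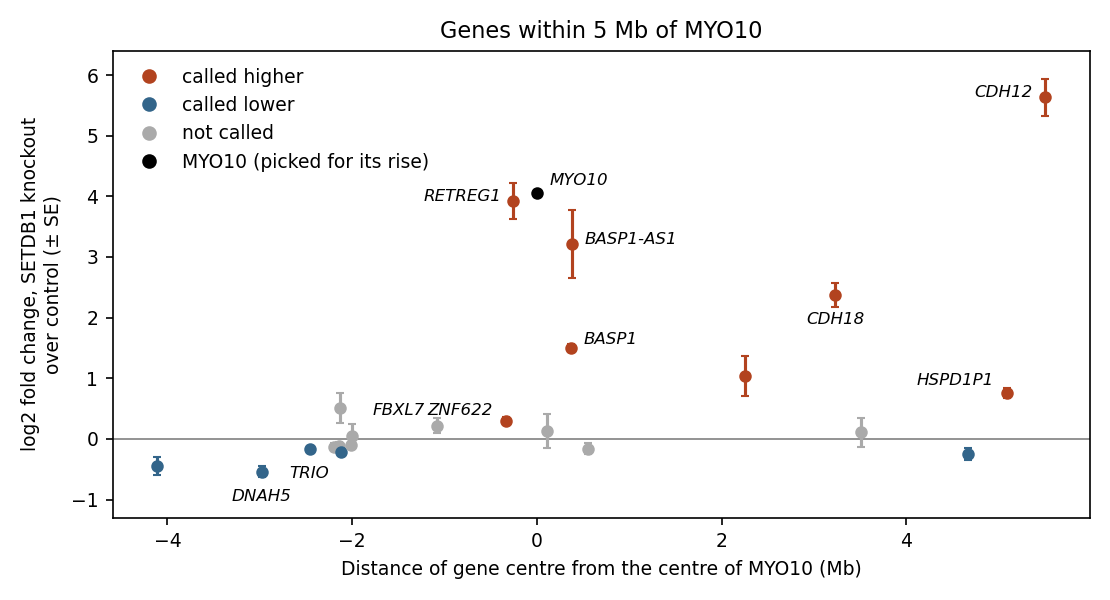
Log2 fold change (with SE) of the tested genes within 5 Mb of MYO10, against the distance of each gene's middle from that of MYO10 in Mb, so that a long gene whose near edge is within 5 Mb can have its middle beyond it. MYO10 (4.05) and RETREG1 (3.92) lie together at the centre, CDH12 (5.63) near the edge, and most genes lie near 0.

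The genes whose 6 log2 CPM values, each centred on the gene's own mean, lay nearest to those of MYO10 were STAT6, NEFH, MYEOV, CALB2 and PCSK6, among 10540 coding genes with a mean of at least 5 CPM. The distance was 0.299 for STAT6, 0.389 for NEFH, 0.47 for MYEOV, 0.492 for CALB2 and 0.504 for PCSK6, in log2 units over the 6 libraries. STAT6 went from 2.64 to 37.5 CPM and NEFH from 6.54 to 133 CPM. The likeness is mostly that of a single difference between the groups, since 3 libraries of each group carry little other variation.

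The unconventional myosins that had not been listed with MYO10 mostly fell. Of 16 such genes, 9 were in the table and 8 passed the filter, and the other 7 were not analysed here. With edgeR 6 of the 8 fell, 0 rose and 2 were not called, with a median log2 fold change of -0.86. The called share was 75%, beside 63.5% of all genes, of which 31.6% were lower. At an unadjusted p under 0.05 edgeR had 2 of the 8 higher (MYO1F and MYO15B), beside 5892 of all 17675 genes tested. Among these 8, limma-voom called MYO1F higher (adjusted p = 0.0462) and DESeq2 called 0. MYO1F was also called without control replicate 2 (adjusted p = 0.0312), and MYO15B without knockout replicate 2 (adjusted p = 0.0462).

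MYO5C, a class V motor of secretory cells, was at 3.233, 3.12 and 2.838 CPM in the knockout and at 10.01, 10.22 and 9.80 CPM in the control, a fall with no overlap (-1.71 ± 0.10, adjusted p = 6.67e-12). Its relative MYO5B, which recycles membrane with RAB11, fell from 5.63 to 2.19 CPM (-1.36 ± 0.12, adjusted p = 4.09e-09). All 3 class V genes measured, MYO5A, MYO5B and MYO5C, were thus called lower. MYO5C (chromosome 15, 52192322 to 52295798) lies close to MYO5A, which begins at 52307283, so these genes share a stretch. Within 5 Mb of MYO5C, 35 of 59 tested genes fell and 1 rose. The neighbour medians were -0.37 for MYO5C and -0.28 for MYO5B. With these taken out, MYO5C was at -1.34 and MYO5B at -1.08. The part of the stretch in these falls was not otherwise tested. MYO1D fell from 1.54 to 0.174 CPM (-3.14 ± 0.29, adjusted p = 1.25e-08) and MYO18B from 8.36 to 5.80 CPM (-0.53 ± 0.09, adjusted p = 2.10e-05).

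MYO7A, the motor of hair cell bundles, was at 0.684 CPM in the control and at 0.386 CPM in the knockout (-0.82 ± 0.27, adjusted p = 0.0141). Its call ended without knockout replicate 2 (adjusted p = 0.0667), without control replicate 1 (adjusted p = 0.0712) and with DESeq2 (adjusted p = 0.0786). MYO1F (0.62 ± 0.28, adjusted p = 0.0627) and MYO15B (0.64 ± 0.29, adjusted p = 0.0659) were under 1 CPM in both groups. MYO16 did not pass the filter on low counts, with 17, 7 and 18 counts in the knockout and 1, 0 and 0 in the control. It was tested and called higher where that filter was not applied, in edgeR (adjusted p = 3.14e-05) and in DESeq2 (adjusted p = 1.48e-04). It also passed the filter and was called higher without knockout replicate 2 and without each control library in turn (adjusted p from 1.12e-06 to 3.14e-04). The ratio of its summed levels was 42.5, with an exact 95% counting interval of 7.21 to 1720 that covers counting error only. With the 8 listed myosins other than MYO10, the family had 16 tested genes, of which 2 rose, 11 fell and 3 were not called, beside 31.9% of all genes higher and 31.6% lower.

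MYO10 acts with the bundling and elongating proteins of filopodia, and a list of 22 such partners and cargoes had 21 tested genes. Of these 6 rose, 10 fell and 5 were not called, a called share of 76.2% beside 63.5% of all genes. The median log2 fold change was -0.16. The netrin receptors that the MYO10 tail binds rose. NEO1 (neogenin) was at 41.39, 34.58 and 35.85 CPM in the knockout and at 13.58, 12.49 and 12.40 CPM in the control, 2.91-fold higher (log2 fold change 1.54 ± 0.07, adjusted p = 8.01e-13). DCC was at 1.666, 1.185 and 1.083 CPM in the knockout and at 0.1001, 0.03153 and 0.1412 CPM in the control, 13.5-fold higher (3.75 ± 0.37, adjusted p = 3.42e-08). In neither gene did the groups overlap, and the DCC values rest on few counts in the control. FSCN1 (fascin), which bundles the actin of filopodia, rose from 146 to 206 CPM (0.50 ± 0.05, adjusted p = 7.69e-08).

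Other partners of filopodia fell. VASP, which elongates actin at the tip, went from 215 to 121 CPM (-0.83 ± 0.05, adjusted p = 3.38e-11), but its neighbours had a median of -0.71, and with that taken out it was at -0.12 (adjusted p = 0.0551). ITGB3, an integrin subunit, fell from 1.47 to 0.553 CPM (-1.43 ± 0.22, adjusted p = 1.22e-05). KIF1A, a kinesin, fell from 1.12 to 0.398 CPM (-1.47 ± 0.26, adjusted p = 6.56e-05).

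The neck light chains split between the genes. CALM2 and CALM3 encode the same calmodulin protein, and CALM3 rose from 151 to 221 CPM (0.55, adjusted p = 4.73e-08) while CALM2 fell from 700 to 434 CPM (-0.69, adjusted p = 4.99e-08). In the list of calmodulins and myosin chaperones, 4 of 7 tested genes rose, 2 fell and 1 was not called, a called share of 85.7% beside 63.5% of all genes. The other rises were small: HSP90AA1 (0.18, adjusted p = 0.0175), HSP90AB1 (0.15, adjusted p = 0.0289) and the myosin chaperone UNC45A (0.14, adjusted p = 0.0237), which was named after its value was seen. The 4 rises became 1 without knockout replicate 2 or control replicate 2, and 2 without knockout replicate 3 or control replicate 1. Calmodulin and HSP90 genes have processed pseudogenes, so some of their reads may have been dropped or counted elsewhere.

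**Figure D5:**
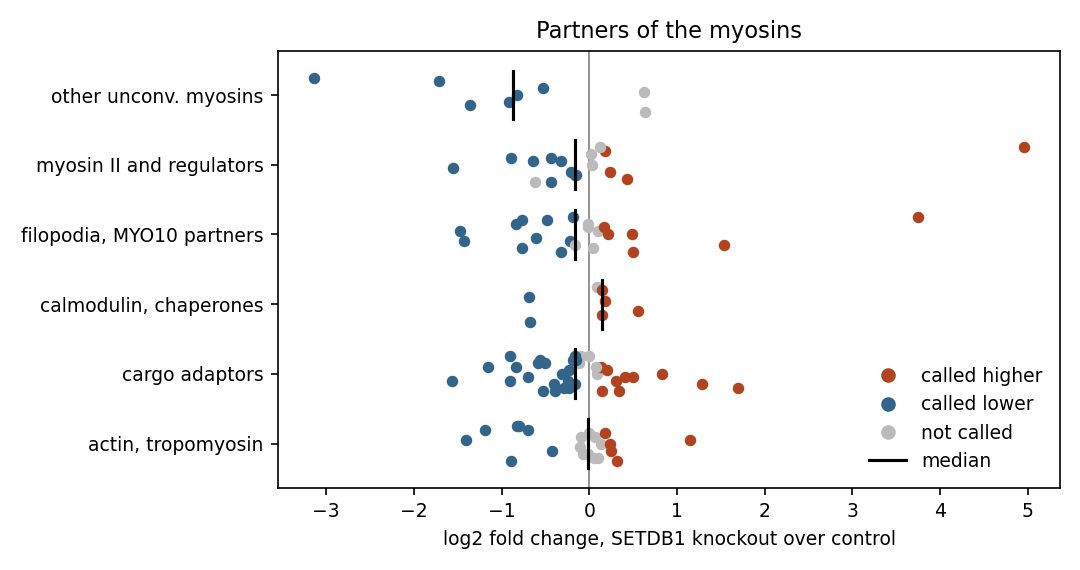
Log2 fold change (SETDB1 knockout over control) of each tested gene in the partner lists of the myosins, from 3 libraries per group. DCC (3.75) and NEO1 (1.54) stand highest among the filopodial partners, MYH14 (4.96) among the myosin II genes, and each list holds genes on both sides of 0.

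Cargo adaptors and regulators of the listed myosins had 37 tested genes, of which 10 rose, 21 fell and 6 were not called, with a median of -0.16. The called share was 83.8%, beside 63.5% of all genes. RILPL2, a partner of MYO5A, rose from 11.9 to 29.1 CPM (1.29, adjusted p = 1.02e-11), and SPIRE2, an actin nucleator that works with class V myosins, from 7.87 to 14.0 CPM (0.83, adjusted p = 5.54e-08). RAB3A rose from 0.411 to 1.32 CPM (1.70, adjusted p = 3.88e-05). Among the genes that fell were WIPF1, which binds the actin regulator N-WASP (-1.57, from 8.63 to 2.89 CPM, adjusted p = 1.41e-10), and the endocytic MYO6 adaptor DAB2 (-0.90, from 13.8 to 7.35 CPM, adjusted p = 4.76e-09). RHOB, a relative of the RhoA that class IX myosins switch off, fell from 39.2 to 17.5 CPM (-1.16, adjusted p = 9.17e-12). With the median of each gene's neighbours taken out, 5 adaptors were called higher in place of 10.

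For comparison within the myosin superfamily, the myosin II heavy chains, light chains and regulators had 17 tested genes, of which 4 rose, 9 fell and 4 were not called (called share 76.5%, beside 63.5% of all genes, and median -0.16). MYH14, a nonmuscle heavy chain, was at 13.86, 12.80 and 14.07 CPM in the knockout and at 0.3003, 0.473 and 0.5084 CPM in the control, a 31.1-fold rise (4.96 ± 0.14, adjusted p = 2.80e-16). Every knockout library was far above every control library. MYH10 rose from 166 to 197 CPM, by 0.24 ± 0.05 (adjusted p = 3.59e-04), but its neighbours had a median of 0.44. With that taken out its value was -0.20 (adjusted p = 0.00235), so MYH10 rose by less than that median. MYL6B rose by 0.43 (adjusted p = 2.73e-06), and MYL12B, named after its value was seen, by 0.18 (adjusted p = 0.0113). The kinases MYLK, CDC42BPB and ROCK1, which turn myosin II on, fell by 1.55 (from 21.3 to 7.29 CPM, adjusted p = 1.51e-12), 0.89 (from 267 to 144 CPM, adjusted p = 9.90e-12) and 0.64 (from 114 to 73.1 CPM, adjusted p = 1.15e-09). Their neighbour medians were -0.04, -0.43 and -0.14. With these taken out, MYLK was at -1.51, CDC42BPB at -0.46 and ROCK1 at -0.51.

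The actin track itself was divided. Of 21 tested genes for actins, tropomyosins and filament regulators, 5 rose, 7 fell and 9 were not called, a called share of 57.1% and a median of -0.01, near that of all genes. PFN1 (profilin) rose from 514 to 1140 CPM (1.15, adjusted p = 5.41e-12), beside a neighbour median of 0.81. CFL1 (0.32, adjusted p = 7.01e-05) and ACTG1 (0.25, adjusted p = 0.00127) rose less, as did TPM2 (0.24) and CAPZA1 (0.18), both named after their values were seen. The crosslinker ACTN4 fell from 1790 to 680 CPM (-1.40, adjusted p = 8.85e-14) and TPM1 from 286 to 125 CPM (-1.19, adjusted p = 8.80e-13). The neighbour medians were -0.59 for ACTN4 and -0.39 for TPM1, and with these taken out both genes were at -0.8. ACTA2 fell from 4.05 to 2.17 CPM (-0.89, adjusted p = 2.03e-06) beside a neighbour median of -0.69, and with that taken out it was at -0.20 (adjusted p = 0.158).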

How the data were processed

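RNA-seq libraries of 3 SETDB1-knockout and 3 control H1299 samples were analysed, grouped by the sample titles. The authors deposited raw counts of reads per gene in 1 table. FastQC, TopHat2, HTSeq and GRCh38.p7 are named, per the submitters' processing notes, with settings, annotation release and strand use not given in the sources used here. Per the labels' protocols, libraries were made from total RNA with an Illumina TruSeq kit. The smallest row maximum was 11 counts, so rarer genes were not analysed here.

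Identifiers were matched without version to GENCODE 29, which named 18595 of the 18677 rows. Genes were kept by filterByExpr, scaled by TMM (factors 0.976 to 1.02) and tested with edgeR 4.0.16 in R 4.3.3 (robust glmQLFit and glmQLFTest, Benjamini-Hochberg adjustment over 17675 genes). The SE is the log2 fold change divided by the square root of the F statistic. Replicates differed by more than counting error (chi-square per degree of freedom 2.32 to 10.3), and the common biological coefficient of variation was 4.89%. CPM per kb used the union of a gene's GENCODE exons. The fit was tested on simulated data with few changed genes and independent libraries. In these data 63.5% of genes were called, so the simulation does not show the error rate of the calls here.

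The members and the gene lists were chosen with earlier results of these data known. The text names the 9 myosins, the other tested unconventional myosins, up to 3 rising and 3 falling called genes per partner list (groups apart, at least 1 CPM in the higher group), the 3 coding neighbours on each side of MYO10 and the 5 genes most like it. A few genes that meet this rule are not reported here but remain in the counts. Genes named outside this rule illustrate a count or a position. Alternatives were other scalings and filters, DESeq2 1.42.0, limma-voom (limma 3.58.1), stricter thresholds, a replicate block, the neighbourhood median taken out and each library left out. The longest transcript as length and the 5 Mb window were added after the data were seen.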

Additional observations from a re-analysis of the deposited data

How the results depend on the processing

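The calls of the listed myosins rested on 3 libraries per group, 1 guide per group and small spreads, so they show differences between these libraries. Over 16 alternatives for each of the 8 tested myosins, 122 values kept their direction and call, 5 lost it and 1 gained it. All 5 were lost in the test against a fold of 1.5 (glmTreat), where 0 myosins were called higher and 2 lower (MYO1E and MYO6), and MYO19 was called with library size alone (0.13, adjusted p = 0.0379). The value of MYO10 ran from 4.0 to 4.14, the latter with the neighbourhood median taken out. In the test against a fold of 1.5, 1556 genes were higher and 1496 lower. The calls there were 1 higher and 2 lower for myosin II, 2 and 5 for filopodial partners, and 0 and 0 for calmodulins and chaperones. They were 3 higher and 5 lower for cargo adaptors, and 1 and 6 for actins, tropomyosins and filament regulators. At an adjusted p under 0.01, 1 calmodulin or chaperone gene was higher. With the neighbourhood median taken out, 5 cargo adaptors were higher, and MYH10 was at -0.20, lower relative to that median though not in level. The cause was not tested. Other unconventional myosins called higher were 1 with library size alone and with limma-voom (MYO1F), 1 with no filter and with DESeq2 (MYO16, which the filter had left out), and 0 to 2 with a library left out (MYO16, MYO1F or MYO15B). Calmodulins and chaperones called higher were 1 to 4 with a library left out. Same-numbered libraries did not deviate together in every pair (r = 0.393, -0.153 and 0.199 over 10442 genes), and not every library correlated best with its own number, so the numbers were not taken as pairs. With the replicate block, 5864 genes were higher and 5839 lower, MYO10 was at 4.05, and 2 listed myosins were higher and 5 lower. With the longest transcript as length, the share of MYO10 was 7.62% in the knockout and 0.583% in the control, and that of MYO1C 57.6% and 46.7%. Shares and CPM per kb ratios within a library do not depend on the scaling. Of 144 neighbourhood medians, 15 moved by more than the spread between libraries. Levels near or under 1 CPM limit the precision for MYO7A, MYO16 and DCC.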
